A study of Arabidopsis thaliana with 8 samples.

Results

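Total RNA of elf18-treated leaves was compared with total RNA of mock-treated leaves, in 4 of the 8 libraries of the series. The 4 libraries were chosen by their labels: 2 of mock RNA and 2 of elf18 RNA, each counted over exons. All plants were Arabidopsis thaliana of the Col-0 ecotype, aged 3 weeks, and all carried the transgene 35S:uORFsTBF1-LUC, in which a viral promoter drives luciferase behind the leader of TBF1. Leaves were infiltrated with 10 µM elf18 or, as mock, with 10 mM MgCl2. Each library came from 1 lysate of leaf tissue pooled from about 24 plants, with 2 leaves taken per plant. No label states how long after infiltration the leaves were harvested, or whether the 2 lysates of a group came from separate plantings, so a p-value measures only the spread between these libraries.

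The peptide elf18 is the N-terminal part of bacterial elongation factor Tu, and leaf cells of Arabidopsis sense it through the receptor kinase EFR. Sensing starts pattern-triggered immunity, in which calcium influx, reactive oxygen and protein kinases act on transcription. The known outputs reach beyond signalling genes, to secretion toward the plasma membrane, wall reinforcement, aromatic and indolic metabolism, and a shift away from growth. The results below describe those outputs, mainly in transcripts counted often enough to be measured well.

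Exon counts totalled between 7898180 and 15405467 per library, and 3 counts corresponded to 0.19 to 0.359 CPM (a gene's counts scaled to its library total, here with edgeR's TMM factors). The elf18 libraries held at least 1 count in 14343 and 14007 genes, against 16912 and 17104 in mock, and 1261 genes had counts in both mock libraries and in neither elf18 library. None of these 1261 genes reached a mean of 500 counts. Replicates correlated across 15870 genes on log2 CPM at r = 0.907 in mock and 0.724 with elf18, and across the 3708 genes averaging 500 or more counts at 0.981 and 0.929. The tissue label fitted its markers: 15 leaf mesophyll markers summed to 110991 to 128339 CPM, none of them at 0, and 11 root markers to 0 to 1.84 CPM, with all 11 at 0 in 3 libraries and 10 at 0 in the other. EFR itself stood at 42.6 and 37.7 CPM in mock and 68.3 and 21.4 CPM with elf18, so the elf18 libraries lay on either side of mock (log2 change 0.16 ± 0.54, adjusted p = 0.981). The polyubiquitin gene UBQ10, a common reference, stood at 1218 and 1248 CPM in mock and 1301 and 1203 CPM with elf18 (log2 change 0.02 ± 0.09).

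In all, edgeR's quasi-likelihood test called 483 genes risen and 25 fallen at a Benjamini-Hochberg adjusted p under 0.05, which is 3.04% and 0.158% of the 15870 genes tested and 3.20% together. A gene with a mean of 500 or more exon counts over the 4 libraries is called well-counted from here on. Of 3708 such genes, 434 rose (11.7%) and 23 fell (0.620%), 12.3% together. A gene low in mock can reach that mean through its own rise: 427 well-counted genes had a mean under 500 in mock, and 161 of them rose, while 273 of the other 3281 rose (8.32%). Counts of well-counted genes are therefore a description, and the share over all genes tested is given beside them. The median log2 change was -0.09 over all genes tested and 0.02 over the well-counted genes. With library totals in place of TMM factors the median of all genes moved by -0.15 on the log2 scale, and changes are read relative to that shift. In bulk leaf, fewer cells of a type and less RNA per cell cannot be told apart.

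Calls are termed stable where the gene was well-counted, the mock and elf18 libraries did not overlap, and the call remained when each of the 4 libraries was left out in turn. In a stable gene the groups are thus apart by definition, which adds no evidence. By that rule 360 rises and 9 falls were stable, and 74 rises and 14 falls of well-counted genes were not. Of the stable rises, 346 reached 2-fold, 179 reached 4-fold and 20 reached 16-fold, with a median of 1.98 on the log2 scale. The name listed for 164 of these 360 genes was the locus itself. When the well-counted genes were fitted alone, 623 rose (16.8%) and 167 fell (4.50%), so the number of falls depended on which genes shared the fit. It also depended on the elf18 libraries, which lay further apart than the mock libraries: without elf18 replicate 1 the test called 1678 rises and 2699 falls, and without elf18 replicate 2 it called 1568 and 2258, in fits that take the lone elf18 library to vary like mock. These 2 fits lost no call of the main test. That part of the stable rule therefore removed no gene, and in effect the rule tested calls only against leaving out a mock library.

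**Figure D1:**
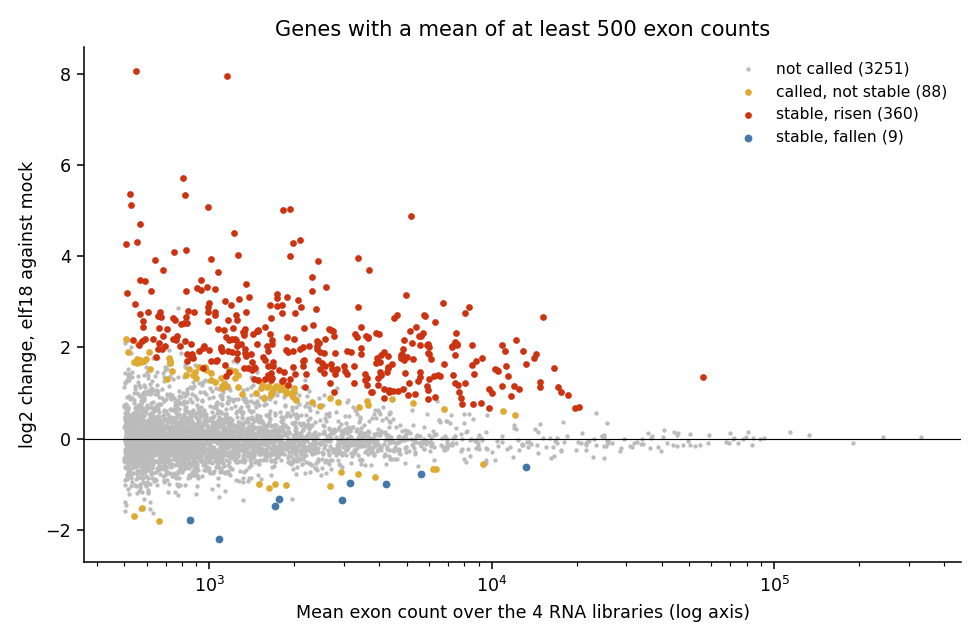
Log2 change with elf18 against the mean exon count over the 4 RNA libraries, for the 3708 well-counted genes; red points are the 360 stable rises, blue points the 9 stable falls, yellow points the 88 other calls and grey points genes not called. Most called genes lie above 0, and the 2 stable rises with the largest change, AT4G04480 and AT2G36690 at 8.07 and 7.95, lie toward the lower end of the count range.

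Among the 20 largest stable rises, 8 had a name. The class III peroxidase gene PER4, of the wall peroxidase family, stood at 28.2 and 25.3 CPM in mock and 769 and 824 CPM with elf18, a rise of 4.89 ± 0.14 on the log2 scale (29.7-fold, adjusted p = 0.00075; standard errors follow each ± and n = 2 libraries per group throughout). PP2-B13, a relative of phloem lectins, rose from 9.72 and 13.7 to 167 and 210.0 CPM (4.02 ± 0.27, adjusted p = 0.0015). DMP1, a membrane protein gene known from senescing leaves, rose from 3.05 and 1.56 to 132 and 121 CPM (5.72 ± 0.38). In each of these 3 genes the elf18 libraries lay close together and far above both mock libraries. MLO6, a membrane protein gene of the family whose members allow powdery mildew entry, stood at 1.97 and 1.92 against 69 and 91.6 CPM (5.36 ± 0.36). The transcription factor genes WRKY30 and ZAT11 stood at 15.4 and 16.7 against 389.9 and 266 CPM and at 18.4 and 12 against 298 and 303 CPM (4.36 ± 0.25 and 4.29 ± 0.25). IGMT2, a methyltransferase of indole glucosinolates, stood at 12.5 and 5.16 against 283 and 308 CPM (5.03 ± 0.42). It has near-identical neighbours in the genome, and the sources used here do not give how the counting split their reads. CYP706A2, the eighth, is described with the cytochromes P450.

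The other 12 were known here by locus alone. AT1G07160 was the one with the smallest standard error, at 8.2 and 8.87 CPM in mock and 233 and 319 CPM with elf18 (5.02 ± 0.24, 32.4-fold). AT5G14700, AT1G26380 and AT3G54150 rose by 5.07 ± 0.33, 4.51 ± 0.27 and 4.1 ± 0.37, and AT3G15518 by 4.14 ± 0.48. AT4G04480 had 0 and 7 counts in mock against 1077 and 1111 with elf18, and AT2G36690 had 18 and 1 against 2208 and 2403, so their fitted values, from 6.70 to 13.24 and from 7.33 to 10.47 over the alternatives, rest on few mock counts. AT5G11140, AT2G43590, AT1G30700 and AT5G56960 rose by 5.35 ± 0.36, 5.13 ± 0.42, 4.3 ± 0.48 and 4.27 ± 0.46, and AT1G17147 by 4.72 ± 0.56. Under limma voom 9 of the 20 genes did not pass, namely AT4G04480, AT2G36690, DMP1, MLO6, AT5G11140, AT2G43590, AT1G17147, AT1G30700 and AT5G56960, with adjusted p from 0.05 for DMP1 to 0.209 for AT1G30700. AT1G17147 was also lost on coding-sequence counts (adjusted p = 0.0755).

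**Figure D2:**
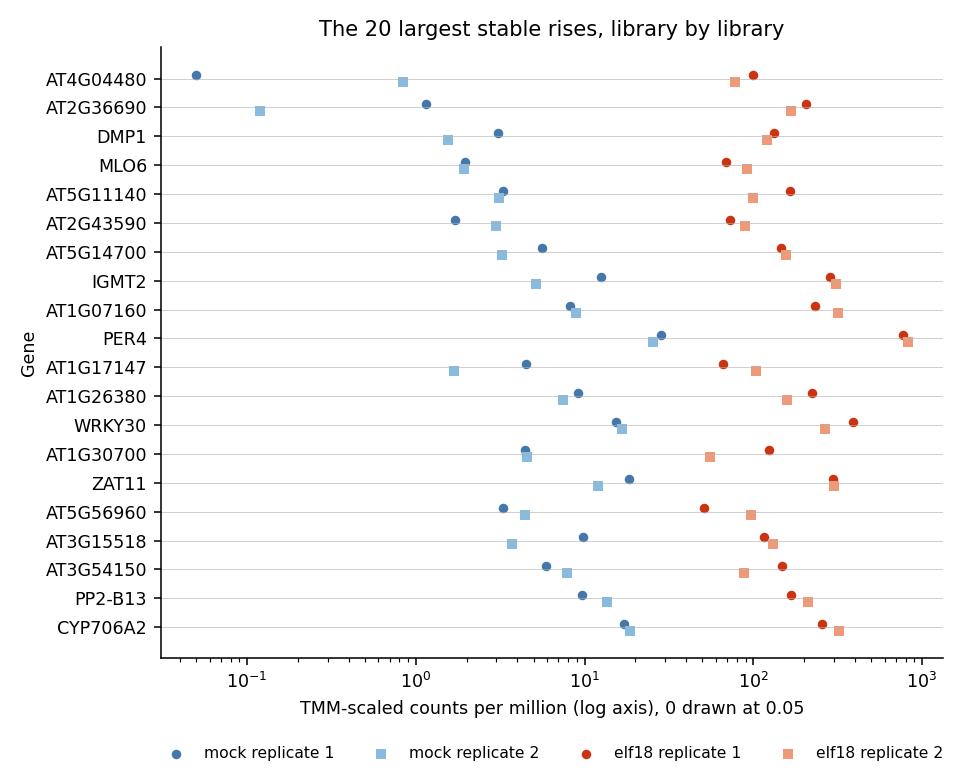
TMM-scaled CPM in each RNA library, on a log axis, for the 20 stable rises with the largest log2 change; blue marks are mock and red marks elf18, circles replicate 1 and squares replicate 2. In all 20 genes both elf18 libraries lie to the right of both mock libraries, which the stable rule requires. PER4 reaches the highest elf18 values, 769 and 824 CPM.

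Genes were then read by function, in 26 lists and 44 families with at least 1 tested member, which together held 1555 tested genes. Members were matched by name or synonym in the locus table, so a gene listed without such a name could not enter. Of the 360 stable rises, 164 had the locus as their listed name. Counts and shares of a group, and statements that it held no call, therefore cover its matched members only. Of these 1555, 72 were called. At least 1 call fell in 28 of the 70 groups and none in the other 42. Since the groups were written with earlier results of these libraries known, a group is described by its counts and its median beside the median of all genes, -0.09, and the 3.20% called of all genes tested, and nothing further is drawn from the comparison. Groups whose share of tested members lay near or below 3.20%, such as the ABC transporters (1.25%), small auxin upregulated RNAs (2.94%), receptor-like proteins (3.23%) and bZIP factors (3.57%), are given for their single called gene and say nothing of the group. The number of groups with a call was 26 and 27 without mock replicate 1 and 2, and 69 and 66 without elf18 replicate 1 and 2. Where edgeR called no member of a group, 4 values follow it in parentheses: the median log2 change, the number of members at an unadjusted p under 0.05, and the numbers called by DESeq2 and by limma voom. Each median takes in all tested members, also those with few counts, among which 0 was commoner in the elf18 libraries.

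**Figure D3:**
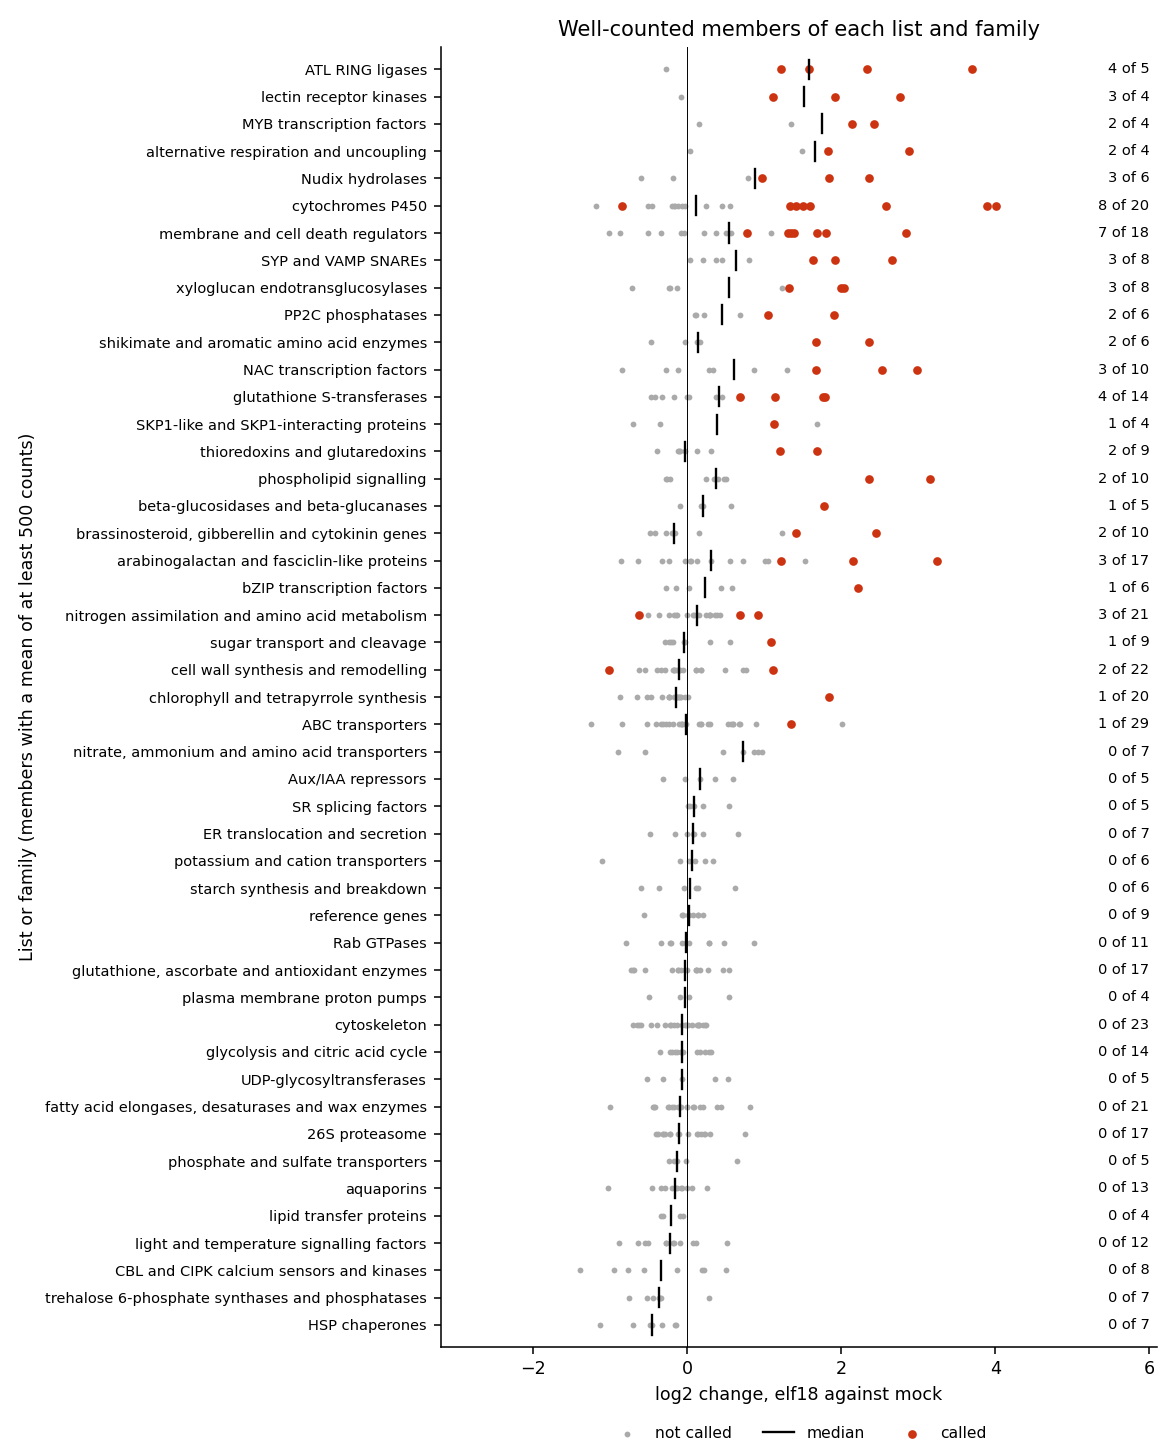
Log2 change with elf18 of the well-counted members of each list or family with at least 4 such members, the cell type marker lists left out; red points are called genes, grey points genes not called and black bars medians, and the number at the right gives called members of all well-counted members. The ATL RING ligases stand at the top with 4 of 5 and the lower 22 groups hold no call, beside 12.3% called of all well-counted genes; a member that reached a mean of 500 counts through its elf18 libraries had to differ, so these shares support nothing.

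Of 25 tested SYP and VAMP genes, the SNARE proteins that fuse vesicles with their target membrane, 3 rose and none fell (12.0%; median 0.20). The plasma membrane syntaxin SYP122 stood at 386 and 359.5 CPM in mock and 1384 and 1434 CPM with elf18 (1.92 ± 0.10, 3.78-fold, adjusted p = 0.00108). SYP121, also called PEN1, which acts in wall deposits at sites of fungal entry, stood at 302 and 225 against 789 and 842 CPM (1.63 ± 0.16, adjusted p = 0.0055). VAMP723, a vesicle-side SNARE gene, rose from 15 and 13.8 to 77.6 and 105 CPM (2.66 ± 0.28). All 3 were stable, and mock replicates of SYP121 differed most, 302 against 225 CPM. The DESeq2 calls in this family numbered 8. SNAP33 and KEU, a t-SNARE and a Sec1-type regulator of fusion, were looked up after values were seen: SNAP33 rose from 150.2 and 157 to 541 and 424 CPM (1.65 ± 0.16) and KEU from 43.8 and 39.3 to 189 and 124 CPM (1.91 ± 0.26). No call was made among 46 Rab GTPases, which direct vesicles (0.25, 4, 6 and 0), or among 21 genes of endoplasmic reticulum translocation and secretion (0.00, 3, 3 and 0).

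PEN3, the ABC transporter that exports indolic compounds at the plasma membrane, was the only ABC transporter called of 80 tested (1.25%; family median 0.03). It was already abundant in mock and stood at 2461 and 2635 CPM in mock and 6123 and 6829 CPM with elf18, a rise of 1.35 ± 0.08 (2.54-fold, adjusted p = 0.00133). The replicates of each group lay close together beside that gap. ERD6, a sugar transporter gene known from early dehydration, was the only one called of 20 sugar transport and cleavage genes, at 512 and 489 against 1022 and 1105 CPM (1.09 ± 0.10, adjusted p = 0.00368). No call was made among 14 carriers of nitrate, ammonium and amino acids (0.47, 7, 6 and 0). The same held for 36 potassium and cation transporters (-0.14, 3, 3 and 0), 16 phosphate and sulfate transporters (-0.05, 2, 3 and 0), 22 aquaporins (-0.15, 5, 5 and 1) and 9 plasma membrane proton pumps (0.39, 2, 2 and 0). The purine permease genes PUP14 and PUP18, chosen after their values were seen, stood at 446 and 459 against 1457 and 1278 CPM and at 450.4 and 446 against 1301 and 1202 CPM (1.6 ± 0.10 and 1.48 ± 0.09, adjusted p = 0.0015 and 0.00138); as members of a close family they may share reads.

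Regulators at the membrane and of cell death rose at 7 of 30 tested genes and fell at none (23.3%; median 0.44), and 6 of the 7 were stable. FLOT1, a flotillin of membrane microdomains, stood at 53.9 and 38.1 CPM in mock and 304 and 359 CPM with elf18 (2.84 ± 0.22, 7.18-fold, adjusted p = 0.00229). TET8, a tetraspanin found on extracellular vesicles, stood at 297 and 280.0 against 771 and 735 CPM (1.38 ± 0.10), and HIR2, a member of the hypersensitive-induced reaction proteins, at 531 and 563 against 954 and 926 CPM (0.78 ± 0.09). These 3 are scaffold proteins of the membrane itself. NSL1, a gene whose loss gives spontaneous lesions, rose from 247 and 255 to 599.9 and 684 CPM (1.35 ± 0.12, adjusted p = 0.00321). A second gene of that kind, AT1G29690 (CAD1, constitutively activated cell death), was added after its values were seen and rose from 117 and 128 to 295 and 354 CPM (1.41 ± 0.15). The metacaspase gene MC1, which promotes cell death, rose by 1.31 ± 0.19, and the metacaspase gene MC8 by 1.69 ± 0.28 without being stable. BAP1, a C2-domain protein gene that restrains cell death, rose by 1.8 ± 0.29 (adjusted p = 0.0344), and lost its call on coding-sequence counts (0.0513), with library totals (0.06) and under limma voom (0.0505).

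Lipid signalling genes rose at 2 of 25 tested, both stable, and none fell (8.0%; median -0.13). PLA2A, a patatin-like lipid acylhydrolase, stood at 64 and 97.4 CPM in mock and 710.2 and 724 CPM with elf18 (3.16 ± 0.22, 8.91-fold, adjusted p = 0.00173). PLDGAMMA1, a phospholipase D, which makes phosphatidic acid, stood at 42.4 and 33.3 against 177 and 213 CPM (2.36 ± 0.21, adjusted p = 0.00354); its close relatives in the genome may share its reads. Both genes were several-fold higher in each elf18 library than in either mock library.

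Further lipid enzymes were picked after their values were seen. The lipid phosphate phosphatase gene AT2G01180 (PAP1, also LPP1), whose enzyme removes phosphatidic acid, rose from 179 and 199 to 635 and 886 CPM (2.01 ± 0.18). In sphingolipid metabolism, the inositol phosphorylceramide synthase gene AtIPCS2 rose by 1.9 ± 0.14 and SPP1, which dephosphorylates sphingoid bases, by 1.7 ± 0.19. The choline kinase gene CK1 (AT1G71697) rose by 1.64 ± 0.13, the phosphoinositide kinase gene FAB1D by 1.87 ± 0.13, and the phospholipid flippase ALA1 with its subunit gene ALIS1 by 1.22 ± 0.13 and 1.59 ± 0.14. In the acylhydrolase gene DLAH the elf18 libraries differed more than 2-fold, at 9.72 and 6.72 against 152 and 62.1 CPM (3.69 ± 0.51), and the call was lost under limma voom (adjusted p = 0.181). Among 37 fatty acid elongases, desaturases and wax enzymes none was called (-0.11, 3, 2 and 0).

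Mitochondrial carriers were the called members of the list of alternative respiration and uncoupling: 2 of 9 tested genes rose and none fell (22.2%; median 0.18). DIC2, a dicarboxylate carrier of the inner membrane, stood at 159 and 162 CPM in mock and 1187 and 1168 CPM with elf18 (2.88 ± 0.10, 7.36-fold, adjusted p = 0.00107). UCP5, another carrier of the same kind, stood at 269 and 261 against 1016 and 859 CPM (1.82 ± 0.12, adjusted p = 0.0015). The 2 replicates of each group were almost equal for DIC2 and far from those of the other group. The alternative oxidase gene AOX1A, a usual marker of mitochondrial stress, stood at 66.3 and 31.1 against 124 and 151 CPM, a difference of 1.49 ± 0.37 that did not pass (adjusted p = 0.145), with the mock libraries about 2-fold apart. BCS1, the outer membrane ATPase also named OM66, was read after its value was seen and rose from 103 and 105 to 468 and 494 CPM (2.21 ± 0.12, adjusted p = 0.00127). None was called among 24 genes of glycolysis and the citric acid cycle (-0.11, 1, 1 and 0).

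The NAD kinase gene NADK1, which makes NADP, and the NADP-malic enzyme gene NADP-ME2, which reduces it, were chosen after their values were seen. NADK1 stood at 104 and 106 CPM in mock and 497 and 540.5 CPM with elf18 (2.31 ± 0.12, adjusted p = 0.00127), and NADP-ME2 at 191 and 151 against 713 and 716 CPM (2.06 ± 0.15, adjusted p = 0.00179). In the list of glutathione, ascorbate and antioxidant enzymes no call was made among 24 genes (-0.10, 4, 3 and 0). ATMDAR2, a monodehydroascorbate reductase gene outside that list and also read after its values were seen, rose from 31.4 and 40.3 to 275 and 313 CPM (3.04 ± 0.19, 8.21-fold).

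Of 31 tested glutathione S-transferases, which conjugate glutathione to reactive compounds, 4 rose and none fell (12.9%; median 0.68). GSTF8 stood at 848 and 882 CPM in mock and 1785 and 2020.3 CPM with elf18 (1.14 ± 0.10), GSTF6 at 124 and 167 against 489 and 495 CPM (1.76 ± 0.17) and its neighbour GSTF7 at 59.5 and 52.8 against 212 and 177 CPM (1.79 ± 0.18); GSTF6 and GSTF7 are near-identical, so their separate values are uncertain. All 4 risen genes belong to the phi class, with GSTF10 at 0.68 ± 0.12 and not stable. Genes that act on glutathione conjugates were read after their values were seen: the gamma-glutamyl transpeptidase gene GGT1 (AT4G39640) rose by 2.06 ± 0.16 from 182 and 191 to 884 and 669 CPM, and AT5G44070 (CAD1, phytochelatin synthase) by 2.05 ± 0.14 from 238 and 298 to 1064 and 1152 CPM. Of 22 tested thioredoxins and glutaredoxins the h-type thioredoxin genes TH9 and TRX5 rose (9.09%; median 0.04), by 1.69 ± 0.25 and 1.21 ± 0.16. TH9 was lost on coding-sequence counts (adjusted p = 0.0659) and TRX5 without RNA mock replicate 1 (0.0574). The ATP sulfurylase gene APS1, at the entry of sulfate assimilation and chosen after its values were seen, rose by 0.67 ± 0.09.

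Of 24 tested Nudix hydrolases, which cleave nucleoside diphosphates linked to other groups, 3 rose and none fell (12.5%; median -0.07), and all 3 were stable. NUDT7, a negative regulator of EDS1-dependent immunity, stood at 289 and 287 CPM in mock and 503 and 631 CPM with elf18 (0.98 ± 0.14, adjusted p = 0.0212). NUDT4 stood at 40.7 and 36 against 176 and 218 CPM (2.36 ± 0.19) and NUDT21 at 47.4 and 54.1 against 227 and 138 CPM (1.85 ± 0.28). The elf18 replicates of NUDT21 were far apart, and its call was lost on coding-sequence counts (adjusted p = 0.121).

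Of 19 tested xyloglucan endotransglucosylases, which cut and rejoin xyloglucan between cellulose fibres, 4 rose and none fell (21.1%; median -0.14). TCH4, first known as a touch-induced gene, stood at 341 and 343 CPM in mock and 1473 and 1345 CPM with elf18 (2.04 ± 0.10, 4.12-fold, adjusted p = 0.00107). XTH18 stood at 211 and 265 against 1058 and 847 CPM (2.0 ± 0.17) and XTH24 at 171 and 198 against 486 and 433 CPM (1.32 ± 0.14), and XTH19, with a mean under 500 counts, at 11.4 and 9.35 against 77.2 and 43.8 CPM (2.54 ± 0.41). XTH24, XTH18 and XTH19 follow each other in the genome and may share reads. XTH19 was lost on coding-sequence counts (adjusted p = 0.0959) and under limma voom (0.0872).

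Of 35 tested arabinogalactan and fasciclin-like proteins 3 rose and none fell (8.57%; median -0.03). All 3 were among its 17 well-counted members, beside 12.3% called of all well-counted genes. AGP1 stood at 351 and 357 CPM in mock and 1416 and 1736 CPM with elf18 (2.15 ± 0.13), AGP2 at 11.6 and 13.1 against 89.7 and 143 CPM (3.24 ± 0.32) and AGP16 at 247 and 243 against 525 and 612 CPM (1.21 ± 0.12). All 3 were stable, and so lay above mock in both elf18 libraries by definition. Among 27 tested genes of wall synthesis and remodelling, 1 rose and 1 fell (median -0.12), and neither was stable: MUR1, which makes GDP-fucose, changed by 1.11 ± 0.14, and PGIP2, an inhibitor of fungal polygalacturonases, by -1.01 ± 0.14. Without RNA mock replicate 1 their adjusted p was 0.0563 and 0.0658. Expansins, which loosen walls, gave no call among 19 (-0.34, 3, 3 and 0). Wall glycosyltransferases and related genes chosen after values were seen included the fucosyltransferase gene FUT4 (2.39 ± 0.19), the rhamnogalacturonan xylosyltransferase gene RGXT2 (1.95 ± 0.20), the cellulose synthase-like gene CSLD2 (1.19 ± 0.13), COBL8 of the COBRA family (1.54 ± 0.19) and FRB1, a gene of cell adhesion (1.46 ± 0.12). The class IV chitinase gene EP3 rose from 19.4 and 20.3 to 151 and 169.9 CPM (3.02 ± 0.20, 8.09-fold).

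Of 15 tested genes of the shikimate pathway and aromatic amino acids, 2 rose and none fell (13.3%; median -0.08), and both encode arogenate dehydratases, which make phenylalanine. ADT4 stood at 78.3 and 65.4 CPM in mock and 386 and 351 CPM with elf18 (2.36 ± 0.16, 5.12-fold, adjusted p = 0.0015), and ADT5 at 58 and 72.1 against 215 and 201 CPM (1.68 ± 0.18, adjusted p = 0.00657). The other arogenate dehydratase genes of the list were not called, and none of them was well-counted. ADT1 stood at -1.02 ± 0.70, ADT2 at -1.16 ± 0.61, PD1 at -1.18 ± 0.51 and ADT6 at 0.01 ± 2.23 on the log2 scale. The lowest adjusted p was 0.359, for PD1. The cinnamoyl-CoA reductase gene CCR2, of the lignin branch, was picked after its values were seen and stood at 21.1 and 6.0 against 117 and 159.6 CPM, with the mock libraries more than 3-fold apart (3.33 ± 0.59); its call was lost on coding-sequence counts (adjusted p = 0.0853) and with library totals (0.0562). Flavonoid and anthocyanin genes gave no call among 10 (-0.65, 3, 3 and 1).

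Of 92 tested cytochromes P450, 8 rose and 1 fell (9.78%; median -0.14). CYP706A2 stood at 17 and 18.6 CPM in mock and 254 and 320.2 CPM with elf18 (4.01 ± 0.20, 16.1-fold) and its relative CYP706A1 at 164 and 155 against 501 and 348 CPM (1.41 ± 0.20). CYP71B5 stood at 10.5 and 16.3 against 79.6 and 81.2 CPM (2.59 ± 0.32), and CYP71B7, which was not stable, at 1.33 ± 0.20 on the log2 scale. The P450 reductase gene ATR2, whose enzyme passes electrons to P450s of phenylpropanoid and indolic routes, was read after its value was seen and stood at 493 and 539 against 1488 and 1716 CPM (1.63 ± 0.11, adjusted p = 0.0016). The other risen P450 genes were CYP81F2, CYP79B2 and CYP82C3 of indolic metabolism and CYP707A3, and the fallen one was CYP94C1. Of these, CYP79B2, CYP82C3 and CYP94C1 were not stable. CYP82C3 had a mean of 273 counts, with 0 in each mock library, and its call was lost under limma voom (adjusted p = 0.0785). UDP-glycosyltransferases gave no call among 41 (-0.03, 7, 6 and 0).

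Of 35 tested genes of brassinosteroids, gibberellins and cytokinins, 2 rose and none fell (5.71%; median -0.48). CKX5, a cytokinin oxidase, stood at 11.9 and 16.4 CPM in mock and 62.2 and 93.1 CPM with elf18 (2.46 ± 0.35, adjusted p = 0.0193). GA2OX6, a gibberellin 2-oxidase, stood at 144 and 125 against 364 and 353 CPM (1.41 ± 0.14, adjusted p = 0.00455). Both encode enzymes that inactivate their hormone, but other such genes of the list were not called: CKX4 stood at 1.23, CKX6 at 0.27, GA2OX2 at -0.59, CKX3 at -6.51 and BAS1 at -8.30 on the log2 scale, with adjusted p from 0.0554 for CKX4 to 0.971 for CKX6. In abscisic acid metabolism CYP707A3, an abscisic acid 8'-hydroxylase that starts its breakdown, stood at 63.9 and 73.9 against 244 and 173 CPM (1.6 ± 0.22, adjusted p = 0.0175). CKX5, GA2OX6 and CYP707A3 were stable, and CKX5 was the least counted of these 3 genes, with elf18 replicates at 62.2 and 93.1 CPM. Auxin families gave no call among 22 Aux/IAA repressors (-0.16, 2, 2 and 0) or 7 GH3 enzymes (-0.12, 0, 1 and 0), and 1 among 34 genes named as small auxin upregulated RNAs (2.94%; median -0.46). That one was AT5G01830, which stood at 38.7 and 31.4 against 303 and 357 CPM (3.23 ± 0.19); the locus table gives it the name SAUR21, which another locus also carries, so its membership is uncertain. None was called among 12 type A and B response regulators (-0.41, 0, 1 and 0).

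Nitrogen and tetrapyrrole genes changed one by one. Among 29 tested genes of nitrogen assimilation and amino acid metabolism, 2 rose and 1 fell (10.3%; median 0.09). The nitrate reductase gene NIA2 stood at 1264 and 1250.1 CPM in mock and 2022 and 2043 CPM with elf18 (0.69 ± 0.08, adjusted p = 0.00717), and NIA1, its close relative, rose by 0.92 ± 0.15 without being stable. ERD5, the proline dehydrogenase gene, stood at 1321 and 1281 against 797 and 898 CPM and fell by 0.62 ± 0.10 on the log2 scale (adjusted p = 0.03, 0.0536 on coding-sequence counts). ALDH12A1, the next enzyme of proline breakdown, stood at 0.011 on the log2 scale and was not called. Among the 21 well-counted members of the list 14.3% were called, close to the 12.3% of all well-counted genes. GAD4, a glutamate decarboxylase gene, was read after its value was seen and rose from 14.1 and 5.04 to 139 and 161 CPM (3.94 ± 0.49).

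Of 22 tested genes of chlorophyll and tetrapyrrole synthesis, 1 rose and none fell (4.55%; median -0.14). The lack of falls depended on the method: fitting the well-counted genes alone called 2 falls, and DESeq2 and limma voom each called 4 members. HEME1 and GUN4 stood at -0.87 ± 0.17 and -0.65 ± 0.13 in the main test (adjusted p = 0.0662 and 0.0761). HEMA2, a glutamyl-tRNA reductase form known from tissues without chlorophyll, stood at 172 and 159.5 CPM in mock and 560.0 and 628 CPM with elf18 (1.84 ± 0.12, 3.59-fold, adjusted p = 0.0015). FC1, the ferrochelatase form of heme supply outside photosynthesis, was added after its value was seen and stood at 287 and 261 against 589 and 834 CPM (1.38 ± 0.18, adjusted p = 0.0163). On the chlorophyll side, CH1, chlorophyllide a oxygenase, which makes chlorophyll b, fell from 348 and 341 to 194 and 155 CPM. The list did not hold CH1, because its older symbol now belongs to another gene. HEMA2, FC1 and CH1 were stable calls.

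Of 40 tested NAC factors 3 rose and none fell (7.5%; median 0.30): NAC090 at 15.8 and 18.9 CPM in mock and 96.9 and 177 CPM with elf18 (2.98 ± 0.35), NAC036 at 18.6 and 19.8 against 109 and 113 CPM (2.53 ± 0.22) and ATAF2, which binds stress and hormone gene promoters, at 105 and 82.9 against 245 and 353 CPM (1.67 ± 0.23). The elf18 replicates of NAC090 were nearly 2-fold apart, and those of NAC036 almost equal. Of 38 tested MYB factors 2 rose (5.26%; median 0.00). MYB15, an activator of lignin genes in immunity, stood at 11.4 and 23 against 96.7 and 86.7 CPM (2.42 ± 0.39, adjusted p = 0.0315), and MYB51, an activator of indole glucosinolate genes, at 23.9 and 24.7 against 102 and 113 CPM (2.14 ± 0.22, adjusted p = 0.0055, 0.0596 on coding-sequence counts). Of 28 bZIP factors BZIP60 was the only one called (3.57%; median -0.11), and of 19 GATA factors BME3, which was not stable (5.26%; 1.53 ± 0.26).

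Only 22 genes matched as bHLH factors by name, and none of the 11 tested was called (-0.41, 2, 0 and 0). A bHLH gene listed under another name is not covered. No call was made among 27 homeobox factors (-0.09, 3, 2 and 0), 17 TCP factors (-0.38, 2, 2 and 0) or 29 light and temperature signalling factors (-0.18, 5, 5 and 0). The 6 tested DREB and CBF factors, regulators of cold and drought genes, gave none either (-3.98, 4, 2 and 0), and none of them was well-counted. Single regulators picked after their values were seen were the heat shock factor gene HSF A4A (18.23 and 19.1 against 153 and 85.5 CPM, 2.68 ± 0.34), DOF1 (32.5 and 29.4 against 150.0 and 103 CPM, 2.03 ± 0.26), the histone demethylase gene JMJ18 (25.1 and 18.8 against 80.9 and 90.2 CPM, 1.96 ± 0.27), SCL13 of the GRAS family (195 and 202 against 382 and 422 CPM, 1.02 ± 0.12) and RAV2 (420.5 and 391 against 763 and 878 CPM, 1.02 ± 0.12). The list of cytosolic heat shock proteins also held heat shock factor genes such as HSF1 and HSFA3. None of its 18 tested members was called (-0.23, 1, 2 and 1), and heat shock genes that the matching left out are not covered.

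Ubiquitin ligases of the ATL family rose at 4 of 15 tested genes and fell at none (26.7%; median -0.03). CNI1, also called ATL31, which acts in the balance of carbon and nitrogen, stood at 45.6 and 39.3 CPM in mock and 593 and 508 CPM with elf18 (3.69 ± 0.16, 12.9-fold, adjusted p = 0.00107). ATL2, an early elicitor gene, stood at 32.1 and 37.5 against 164 and 187 CPM (2.33 ± 0.19), RHA3B at 96.9 and 147 against 338 and 391 CPM (1.58 ± 0.22) and ATL6, the closest relative of ATL31, at 96.3 and 75.3 against 191 and 209.9 CPM (1.22 ± 0.18). The call of ATL6 was lost without RNA mock replicate 2 (adjusted p = 0.071). RING and U-box ligases outside the family, picked after their values were seen, were RDUF2 (91.1 and 86.2 against 427 and 444 CPM, 2.3 ± 0.13), RDUF1 (74.1 and 61.2 against 257 and 275 CPM, 1.97 ± 0.17), XBAT34 (236 and 199.6 against 773 and 1107 CPM, 2.11 ± 0.20) and CMPG2 (30.9 and 32.6 against 217 and 122 CPM, 2.42 ± 0.31). The proteasome itself gave no call among 30 subunit genes (-0.11, 1, 1 and 0), and autophagy none among 18 (-0.04, 1, 1 and 0). Of 19 SKP1-like and SKP1-interacting proteins the F-box gene SKIP2 rose by 1.13 ± 0.15 without being stable (5.26%; median -0.35).

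Organelle and general stress genes were also read after their values were seen. RSH2, which makes the alarmone ppGpp in plastids, stood at 349.5 and 373 CPM in mock and 852 and 825 CPM with elf18 (1.22 ± 0.10, adjusted p = 0.00272). SUFE2, an activator of plastid iron-sulfur cluster assembly, stood at 10.9 and 8.04 against 87.9 and 91.4 CPM (3.23 ± 0.29). ERD1, a regulatory subunit of the plastid Clp protease, stood at 214 and 218 against 459 and 455 CPM (1.08 ± 0.11). All 3 act in plastids and were stable calls. SAG21, a late embryogenesis abundant-like protein gene of mitochondria, rose from 363 and 311 to 1090.4 and 984 CPM (1.62 ± 0.12), and OPR1, an oxophytodienoate reductase gene, from 333 and 315 to 905 and 811 CPM (1.4 ± 0.11). The formin gene FH8, whose protein nucleates actin, rose from 12.1 and 15.2 to 90.5 and 96.4 CPM (2.78 ± 0.26), while the list of 30 cytoskeleton genes held no call (-0.15, 4, 3 and 0).

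Signalling components next to the receptors included lectin kinases, phosphatases and G proteins. Lectin receptor kinases rose at 4 of 21 tested genes and fell at none (19.0%; median 0.74). LECRKA4.1, also LecRK-VI.2, a positive regulator of pattern-triggered immunity, stood at 37.4 and 46.1 CPM in mock and 293 and 271 CPM with elf18 (2.76 ± 0.18, 6.78-fold, adjusted p = 0.00138). AT1G15530 (LecRK-S.1) stood at 67.3 and 64.8 against 245 and 256 CPM (1.92 ± 0.14), while AP4.3A (LecRK-S.2) and AT4G28350 (LecRK-VII.2) rose by 1.11 ± 0.16 and 2.8 ± 0.46 without being stable. One of 31 tested receptor-like proteins rose (3.23%; median -0.03), RLP54, at 38.1 and 41.1 against 138 and 94.9 CPM (1.56 ± 0.25), and its call was lost with library totals (adjusted p = 0.0622).

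Of 25 tested genes matched by name as PP2C phosphatases, 2 rose and none fell (8.0%; median 0.15). PP2C genes that the matching left out are not in this count. AT2G30020 (AP2C1), which dephosphorylates immune MAP kinases, stood at 45.9 and 33.3 CPM in mock and 173 and 126 CPM with elf18 (1.91 ± 0.26, adjusted p = 0.0179), and AT4G33920 (APD5) rose by 1.06 ± 0.17 without being stable. Phosphatases picked after their values were seen were PAPP2C, a PP2C by name but not counted among the 25 (49.5 and 57.8 against 178 and 229.6 CPM, 1.93 ± 0.20), and the type 1 phosphatase TOPP9 (20.8 and 23.9 against 95.7 and 105 CPM, 2.17 ± 0.23). The genes of heterotrimeric G proteins that couple to immune receptors, also chosen so, were AGB1, the beta subunit, at 68.9 and 103 against 451 and 484 CPM (2.44 ± 0.22, adjusted p = 0.00357), and XLG2, an extra-large alpha subunit, at 109 and 109 against 546 and 517 CPM (2.29 ± 0.12, adjusted p = 0.00116). The fold changes of the 2 subunits were 5.44 and 4.89. CBL and CIPK genes of calcium signalling gave no call among 26 (-0.05, 7, 4 and 0).

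The 9 stable falls were mostly small, and of them BBX14 alone exceeded the median size of the stable rises. BBX14, a B-box zinc finger gene, stood at 151 and 143 CPM in mock and 39.3 and 24.8 CPM with elf18 (-2.2 ± 0.27). BBX15, named after its values were seen, had a mean of 487 counts and so could not be stable. It stood at 62.8 and 82.6 against 15.2 and 7.46 CPM (-2.68 ± 0.43, adjusted p = 0.0328), a larger change than that of any stable fall. Its call was kept on coding-sequence counts and under limma voom. Carbon and pigment genes followed: CT-BMY, the chloroplast beta-amylase that releases maltose from starch, stood at 474 and 448 against 245 and 217 CPM (log2 change -1.0 ± 0.12, adjusted p = 0.012), and CH1 at 348 and 341 against 194 and 155 CPM (-0.98 ± 0.15, adjusted p = 0.0282, 0.0663 on coding-sequence counts). CT-BMY was not in the starch list, whose 17 tested genes gave no call (0.05, 3, 3 and 0), because its other name is shared. In CT-BMY and CH1 both elf18 libraries lay well below both mock libraries. The multicopper oxidase-like wall gene sks5 stood at 583 and 579.9 against 358 and 318 CPM (-0.78 ± 0.11).

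Of the other stable falls, PYL4, an abscisic acid receptor, stood at 336 and 368 against 137 and 140.0 CPM (-1.35 ± 0.13), DND1, a cyclic nucleotide-gated channel, at 195 and 219.8 against 67.7 and 81.6 CPM (-1.47 ± 0.17), and AT5G25280 and AT4G28240 at 106 and 112 against 28.2 and 34.9 CPM and 212 and 199.8 against 90.5 and 74.8 CPM (-1.79 ± 0.22 and -1.32 ± 0.17). ERD5 is given above. AT5G05600 had the largest test statistic among the falls that were not stable and stood at 309 and 274 against 145 and 137 CPM (-1.04 ± 0.14, adjusted p = 0.0156); its call was lost without RNA mock replicate 1 (0.0594). The gap between mock and elf18 exceeded the gap between replicates in all 10 genes.

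**Figure D4:**
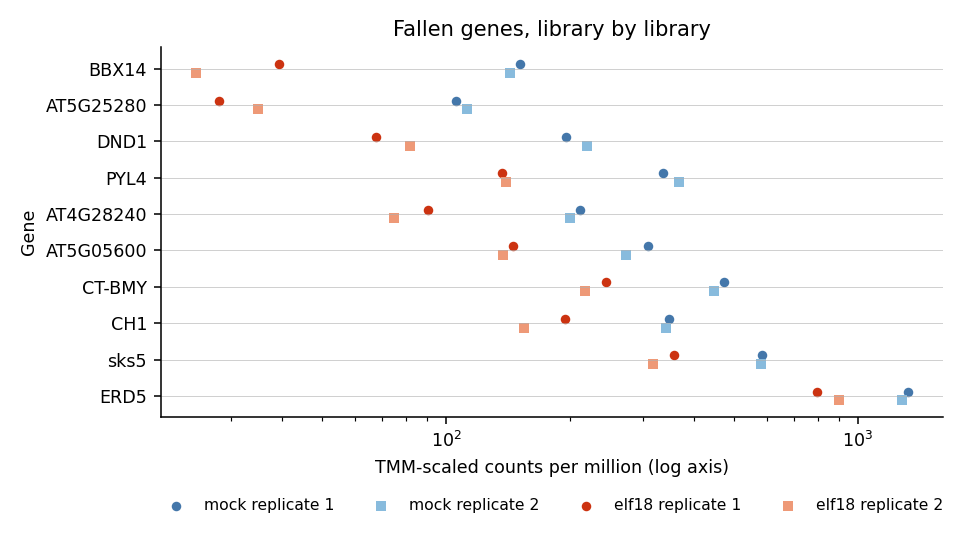
TMM-scaled CPM in each RNA library, on a log axis, for the 9 stable falls and AT5G05600; blue marks are mock and red marks elf18, circles replicate 1 and squares replicate 2. In all 10 genes both elf18 libraries lie to the left of both mock libraries, from BBX14 at 39.3 and 24.8 CPM to ERD5 at 797 and 898 CPM. The stable rule requires this of the 9 stable falls.

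All 14 well-counted falls that were not stable lost their call when a mock library was left out. They included 3 genes named here after their values were seen. COR47, a cold-induced dehydrin, stood at 642 and 635 CPM in mock and 412 and 395 CPM with elf18 (-0.66 ± 0.10), AAE5, an acyl-activating enzyme, at 186 and 172 against 73.1 and 96.1 CPM (-1.08 ± 0.19), and ECS1 at 903 and 913 against 594 and 635 CPM (-0.56 ± 0.09). Leaving out either mock library ended each of these calls, with adjusted p from 0.0509 to 0.154. NdhT, a subunit of the chloroplast NADH dehydrogenase-like complex, had 307 and 106 counts in mock and 0 in both elf18 libraries, and was lost without RNA mock replicate 1 (0.432), on coding-sequence counts (0.0744) and under limma voom (0.145).

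Markers of other leaf cell types differed between groups in some lists. The 10 guard cell markers summed to 16.6 and 68.3 CPM in the elf18 libraries, on either side of 38.8 and 47.6 in mock, with 3 to 6 members at 0 per library. The 9 epidermis and trichome markers summed to 133 and 139 CPM with elf18 against 193 in both mock libraries, with 3 or 4 at 0. The 10 vascular markers summed to 483 and 592 CPM against 386 and 430. No marker was called in these lists (1 member of each list at an unadjusted p under 0.05, 1 of each by DESeq2 and none by limma voom), and the part of cell makeup in the results above was not tested. The 11 reference genes summed to 4612 to 5074 CPM over the 4 libraries and had a median log2 change of 0.01.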

How the data were processed

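The sources used here do not give the strand setting of the counting. Per the submitters' processing notes, base calls came from CASAVA 1.8.2, alignment used Bowtie2 2.0 on build TAIR10, and reads were counted with HTSeq. The authors deposited raw counts per gene, over exons and, in another table, over coding sequences. Locus names came from a locus table of 26685 of the 27172 genes, used for names and gene order, with no coordinates printed.

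From the exon counts of 2 mock and 2 elf18 RNA libraries, edgeR 4.0.16 in R 4.3.3 scaled libraries with TMM, kept genes by filterByExpr with a minimum count of 10 and ran the quasi-likelihood test on 2 residual degrees of freedom, with Benjamini-Hochberg adjustment over all 15870 genes. Standard errors are the log2 change over the square root of F. An exact permutation of 2 against 2 libraries cannot go below p = 0.333. Alternatives used DESeq2 1.42.0, limma 3.58.1, other scaling and filters, coding-sequence counts, the replicate number as a block and each library left out. The test was tested on simulated data of 14665 genes for elf18 against mock: it recovered 32.6% of 95 genes changed 4-fold and 10% of 100 changed 2-fold (76.9% of 26 and 30.3% of 33 at a mean of at least 500 counts), and called 8 of 14470 unchanged genes. The simulation gave both groups the same spread and drew rises and falls alike. In the data the elf18 replicates correlated less (0.724 against 0.907), so these shares do not measure the error rates of the comparison.

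The members, lists and families were chosen with earlier results of these data known. Of 642 list entries, 586 matched 1 locus, and 121 members were taken out by name, 3 of them after values were seen. The named-gene rule took the 20 largest stable rises, the stable falls filled up to 10 by F, up to 4 stable calls per list or family and direction, and EFR and UBQ10, 82 genes in all; genes outside it were chosen after their values were seen. Ribosome footprint libraries were not used here.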

Additional observations from a re-analysis of the deposited data

How the results depend on the processing

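Of the 80 called genes named by the rule, 78 remained called with library totals, 73 on coding-sequence counts and 70 under limma voom. All 80 remained with DESeq2, RLE in place of TMM factors, no filter on low counts, the well-counted genes alone and the replicate block. The fits that left out a library are not counted here. All of these genes but AT5G05600 were named for keeping their call in those fits. Counts of calls moved more. DESeq2 called 2165 genes (1202 risen, 963 fallen), of which 1045 were well-counted (804 and 241), in 64 groups. Fitting the well-counted genes alone gave 790 calls, 167 of them falls. Falls numbered 47 with library totals (43 well-counted), 47 with no filter on low counts (36) and 63 under limma voom (60). With the replicate number as a block, 916 genes were called (747 risen, 169 fallen), 711 well-counted (99 fallen), in 43 groups. No label states a pairing. Replicate 2 of mock and of elf18 share the sample ID number 3, while replicate 1 carries 2 in mock and 1 with elf18. Deviations of replicate 1 of mock and of elf18 correlated at 0.0134 across genes, which cannot settle a pairing with so few libraries. Over the fits that left out 1 library, calls ranged from 477 to 4377, rises from 462 to 1678, falls from 15 to 2699, well-counted calls from 417 to 1282, well-counted rises from 403 to 868, well-counted falls from 14 to 424 and groups with a call from 26 to 69. The cause of these shifts was not tested. Neither uncalled gene kept its sign: EFR was at -0.21 under limma voom, -0.060 with the block and, leaving out 1 library, from -0.91 (RNA elf18 replicate 1) to 0.76 (RNA elf18 replicate 2), and UBQ10 at -0.13 with library totals, -0.037 among well-counted genes, -0.0025 without RNA mock replicate 1 and, leaving out an elf18 library, from -0.034 (replicate 1) to 0.076 (replicate 2). Depth limits low genes, since 3 counts were 0.19 to 0.359 CPM.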

Other observations

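Some risen genes were neighbours on the chromosome. Of the 483 risen genes, 49 (10.1%) lay in 23 runs in which the next gene in the locus table had risen too. In all, 26 of 10284 neighbouring pairs with both genes tested had both risen, and 608 had at least 1 risen. The 3 longest runs held 3 genes: AT1G24140, AT1G24145 and AT1G24147 (log2 changes 3.18, 2.64 and 1.07), AT2G32190, AT2G32200 and AT2G32210 (2.93, 2.77 and 2.77), and XTH24, XTH18 and XTH19 (1.32, 2.00 and 2.54). Pairs of 1 family included the wall-associated kinase-like genes WAKL2 and WAKL4 (1.89 and 3.91), the receptor kinase genes CRK10 and CRK11 (1.02 and 2.13), the phloem lectin-like genes PP2-B13 and PP2-B14 (4.02 and 4.76) and IGMT2 and IGMT4 (5.03 and 1.77). Pairs of unlike name included TH9 with S6K2 (1.69 and 2.03), and PEN2 with AT2G44500 (1.77 and 2.4). Neighbours of 1 family may share reads, and overlapping neighbours may too where the counting ignored strand; neither was tested.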
